A study of Zea mays subsp. mexicana with 6 samples.

Results

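The unigenes described here were those whose transcripts were above a set floor in untreated teosinte seedlings. They fell to a small fraction of their control level in the cold and stayed within a set window around it under drought. A unigene is the longest assembled transcript of a putative gene. Members were chosen from the measured values: an FPKM (fragments assigned to a transcript, scaled to its length and to the mapped fragments of the library) of at least 5 in both control libraries, a difference of the group means of log2(FPKM + 1) of at most -2.5 for cold minus control, and a difference strictly between -1 and 1 for drought minus control. Of 184280 unigenes, 19345 reached the FPKM limit in both controls and 144 also met both differences, of which 2 that the study names by identifier were left out. The remaining 142 members were 0.734% of the 19345.

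The plants were Zea mays ssp. mexicana, a wild relative of maize, of cultivar 8493, grown in soil at 25 °C and treated at an age of 13 days. Control seedlings received no treatment, cold seedlings were held at 4 °C for 12 h, and drought seedlings were given Hoagland nutrient solution with 20% PEG2000, an osmotic agent, for 3 h. Each condition had 2 libraries, each a pool of at least 3 seedlings and of roots, stems and leaves together. The treatments thus differed in duration as well as in kind, and an effect of the one cannot be told apart from an effect of the other. In pooled organs, fewer cells that express a gene and less RNA per cell cannot be told apart either.

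Chilling slows growth and stiffens membranes, and maize and its relatives, which are of warm origin, are sensitive to it. Heat shock factors are transcription factors that bind heat shock elements, and the chaperones HSP90 and HSP70, which help other proteins fold, are their best known targets. Alcohol dehydrogenase and the cytosolic glyceraldehyde-3-phosphate dehydrogenases GAPC3 and GAPC4 of maize are known as proteins made under low oxygen, where sugar is broken down by glycolysis and fermentation.

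All 142 members had both cold libraries below both control libraries, where 43.8% of the tested unigenes did, and below both drought libraries, where 43.9% did, and nothing is read from this since the rule used these values. Over the members, the median FPKM was 20.5 and 27.7 in control, 1.62 and 1.67 in cold, and 21.0 and 20.9 in drought. Summed over the members, FPKM was 8530 and 9837 in control, 890 and 970 in cold, and 8569 and 9550 in drought. The cold mean was 6.95% of the control mean at the median member, with quartiles of 3.82% and 11.1% and a highest value of 16.9%. On the log2(FPKM + 1) scale the difference between cold and control ran from -6.56 to -2.5 with a median of -2.96, against a median of -0.18 over the 38768 tested unigenes, those whose FPKM averaged 1 or more. Median-of-ratios scaling moved that overall median to 0.0, and 110 of the 142 members then still met the rule.

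Few of these transcripts were lost outright. In both cold libraries 8 members were listed at 0 and 14 more in 1 of them, and 41 lay under FPKM 1 in both. At the other end, 31 members still stood at FPKM 5 or more in both cold libraries, and in 45 the cold mean was 10% of the control mean or more. In drought no member was listed at 0 in any library, and 127 were at FPKM 5 or more in both.

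**Figure D1:**
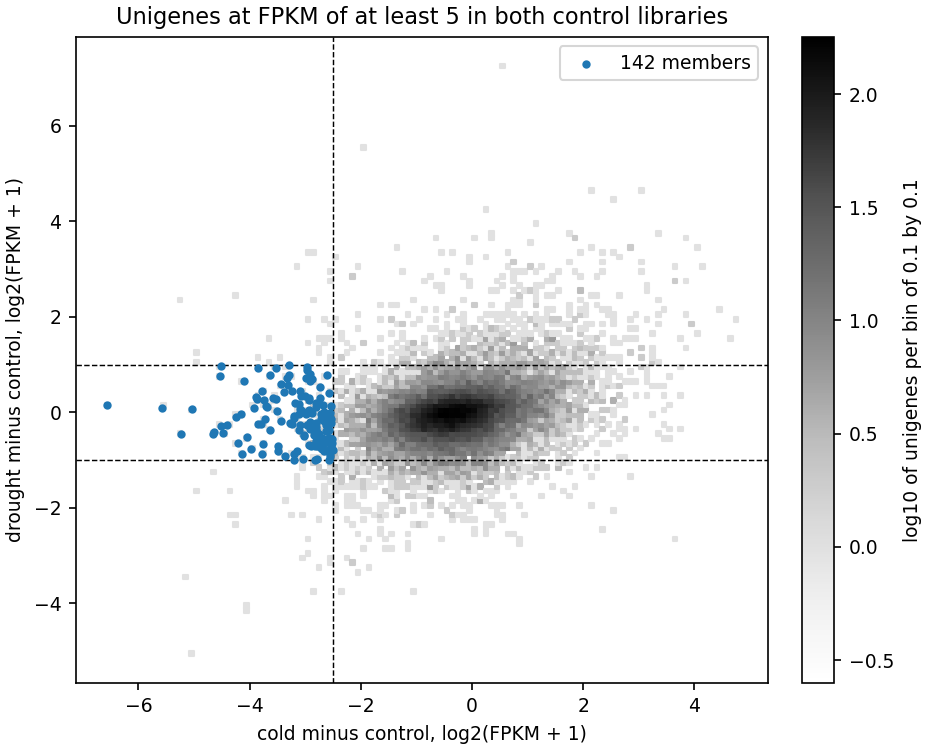
Difference between cold and control (x axis) and between drought and control (y axis), both on the log2(FPKM + 1) scale, for the 19345 unigenes with FPKM of at least 5 in both controls, shown as grey bins shaded by the log10 of the number of unigenes. Blue points are the 142 members, and dashed lines are the limits of the rule at -2.5, -1 and 1.

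As a description of values that the rule itself used, limma on log2(FPKM + 1) called 127 of the 142 members lower in cold, where 1.11% of all tested unigenes were called. A call needed a log2 fold change of 2 or more in size together with an adjusted p below 0.005. In drought 61 members had both libraries below both controls, where 24.6% of all tested unigenes did, and 25 had both above, where 27.8% did. By limma at an adjusted p under 0.05 in drought, 2 members were lower, where 2.83% of all tested unigenes were, and 7 higher, where 5.69% were. The drought difference had a median of -0.22 and ran over the whole window. The difference was within 0.5 of control in 80 members, above by at least that in 19 and below by at least that in 43. Drought lay below control in 63.4% of the members, and in 52.8% of all unigenes with the same control floor and drought window. The cold and drought differences share the control libraries, and the unigenes set beside the members were not chosen by their cold difference. Nothing is therefore read from the gaps between these drought shares.

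The limits of the rule fell among unigenes with similar values on either side. Just inside the cold limit stood c48329_g1 at -2.501, c56226_g2 at -2.510 and c42272_g1 at -2.522, and just outside it c53024_g1 at -2.498, c58554_g1 at -2.492 and c61165_g2 at -2.485. Leaving out the unigenes that the study names, 22 past the cold limit had a drought difference at or above 1 and 45 at or below -1, and 15 others met both differences with a control FPKM under 5. At the upper drought limit c63236_g2 (0.99), c61649_g1 (0.96) and c58474_g1 (0.94) lay inside and c49453_g1 (1.05), c60859_g1 (1.08) and c59064_g1 (1.08) outside. At the lower one c44229_g1 (-0.997), c43187_g1 (-0.99) and c42416_g1 (-0.99) lay inside, and c62756_g2 (-1.002), c64179_g3 (-1.03) and c57340_g3 (-1.04) outside. By the lower control FPKM, c48329_g1 (5.15), c55944_g1 (5.16) and c48779_g1 (5.27) were inside and c41995_g1 (4.87), c64569_g1 (4.84) and c48669_g1 (4.78) outside. No gap in the values separated the members from the unigenes beyond each limit.

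Only 24 members carried an annotation in the study's supplementary tables, and for 15 of these it stood only in tables that the study made from unigenes chosen by their response. In the tables that were not chosen by response, 9 members (6.34%) had an entry, against 6.94% of all 19345 unigenes with FPKM of at least 5 in both controls. The 118 members without an annotation had control means between 5.38 and 651, with a median of 20.7, and the 24 with one had a median of 56.6. The median cold difference was -3.0 in the former and -2.93 in the latter.

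**Figure D2:**
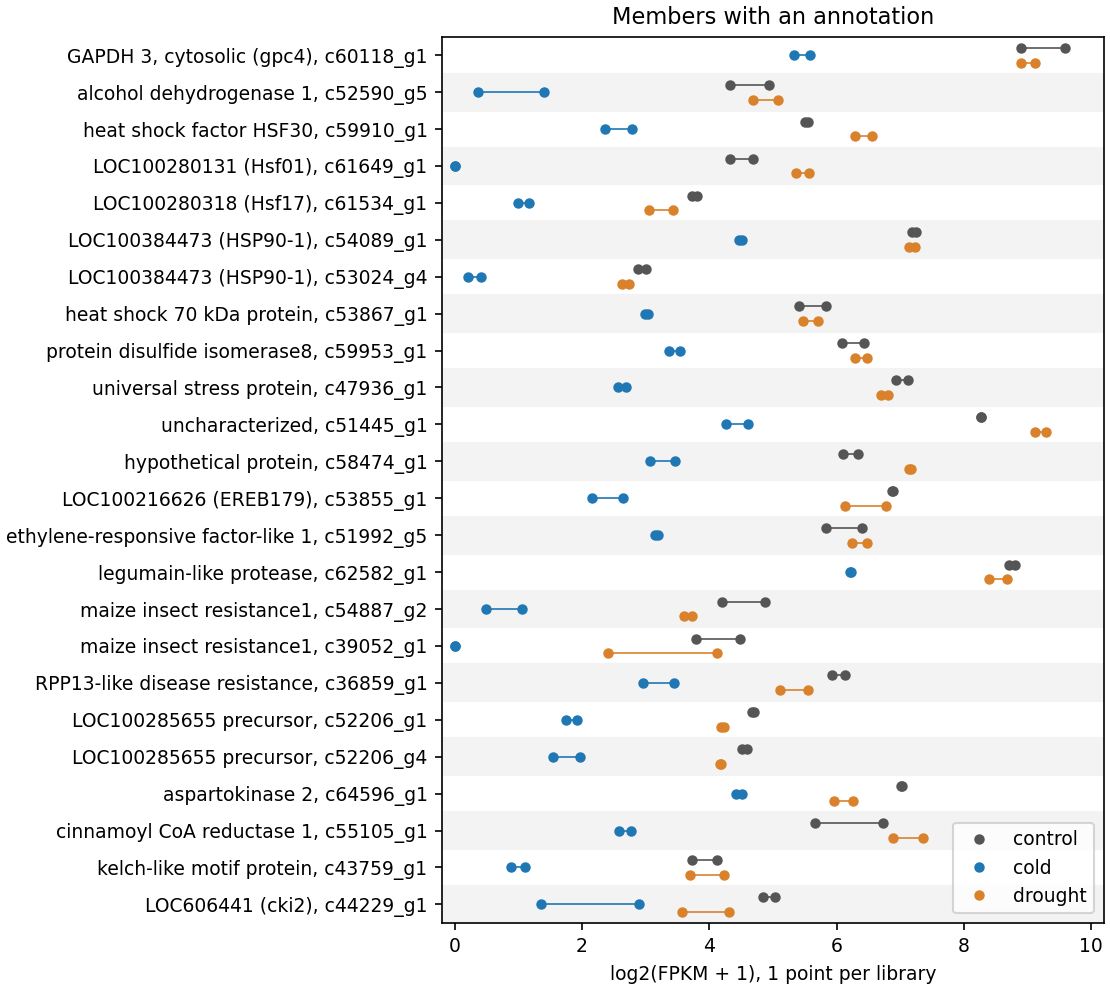
log2(FPKM + 1) of the 24 annotated members in each library, with 1 point per library and a line joining the 2 libraries of a condition (control grey, cold blue, drought orange). In every row both cold points lie left of all control and drought points, and for HSF30 and Hsf01 the drought points lie right of the control points.

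The most abundant annotated member was c60118_g1, a cytosolic glyceraldehyde-3-phosphate dehydrogenase (GAPDH, the glycolytic enzyme) whose maize locus carries the symbol gpc4. Its FPKM was 479 and 768 in control, 39.3 and 47.1 in cold, and 474 and 557 in drought. The cold mean was thus 6.93% of the control mean, and the drought libraries lay at the lower end of the controls. The other GAPDH unigenes had cold differences between -0.59 and 0.24. The 7 of them that were tested, none of which the rule used, included 0 called in cold by limma, 0 at an adjusted p under 0.05 with any fold change and 0 at an unadjusted p under 0.05. The cytosolic GAPDH unigene of the highest level, c61398_g2, had FPKM of 1068 and 1052 in control, 892 and 963 in cold, and 969 and 1009 in drought. Its cold difference was -0.19 (SE 0.11, limma adjusted p = 0.216). The plastid GAPDH B unigene c61768_g1, of the photosynthetic carbon cycle, stood at 3009 and 2786 in control and 2832 and 3603 in cold (difference 0.14, limma adjusted p = 0.541).

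Alcohol dehydrogenase 1, which turns acetaldehyde into ethanol in fermentation, was represented by the member c52590_g5, with FPKM of 19.0 and 29.6 in control, 0.29 and 1.65 in cold, and 24.6 and 33.0 in drought. Its neighbour in the same assembly component, c52590_g1, is also a member, without annotation, and stood at 292 and 511, 71.8 and 58.4, and 351 and 417 in the same order. In both, the second control library was the higher by over 1.5 times, and the cold libraries lay far below either. Most of the component's summed FPKM belonged to c52590_g3, annotated as alcohol dehydrogenase 1 and alcohol dehydrogenase 2, which just missed the rule's limit in cold. It went from 1016 and 1641 in control to 295 and 179 in cold and 1034 and 1288 in drought, a cold difference of -2.48 (SE 0.32, limma adjusted p = 0.00378). How fragments were divided between the unigenes of this component was not tested. A further pair of unigenes with an alcohol dehydrogenase annotation were lower in cold at an adjusted p under 0.05, namely c35801_g1, the class-3 enzyme, by -1.83 and c47215_g1 by -0.63.

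Several annotated members belong to the heat response. In a table that the study made from unigenes chosen on these samples, and which is therefore not independent evidence, 6 members were listed under the gene ontology term response to heat, the GAPDH member among them. A group of 3 are transcription factors of the heat shock factor family. HSF30, c59910_g1, had FPKM of 44.6 and 46.1 in control, 5.89 and 4.16 in cold, and 76.9 and 92.8 in drought. The unigene matched to LOC100280131, which RefSeq also names Hsf01, was c61649_g1, with 19.0 and 24.9 in control and 40.0 and 46.4 in drought, and it was listed at 0 in both cold libraries. In the same component c61649_g2 stood at 14.0 and 9.98 in control and 20.1 and 15.9 in cold. The component's summed FPKM was 38.3 and 39.7 in control and 21.5 and 16.4 in cold. The unigene c61534_g1 (LOC100280318, Hsf17) stood at 12.3 and 13.0 in control, 1 and 1.25 in cold, and 9.82 and 7.33 in drought. Drought was therefore above both controls for HSF30 and Hsf01 and below both for Hsf17, within a window that already limits these values. Heat shock factor unigenes were named only in tables that the study made from unigenes chosen by response, so counts over them are not independent evidence. Of the 6 other heat shock factor unigenes tested, 3 were lower and 3 higher in cold at an adjusted p under 0.05, where 22.4% and 14.8% of all tested unigenes were. Past the fold limit 1 was called lower (1.11% of all), c46749_g1, which met the rule's own values, and 2 higher (2.16% of all), c54528_g2 by 2.48 and c59856_g7 by 3.50, with limma adjusted p of 0.0015 and 0.000339.

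Among chaperones, HSP90 was represented by c54089_g1, matched to LOC100384473 (HSP90-1), with FPKM of 145 and 150 in control, 21.0 and 21.9 in cold, and 149 and 140 in drought. A second unigene with the same match, c53024_g4, was far rarer, at 7.04 and 6.36, 0.16 and 0.33, and 5.20 and 5.69. The HSP70 member c53867_g1 (heat shock 70 kDa protein) had 41.6 and 55.8 in control, 6.93 and 7.18 in cold, and 43.7 and 51.1 in drought. For these 3 members drought lay at most 0.26 from control on the log2(FPKM + 1) scale. All 6 other HSP90 unigenes were lower in cold at an adjusted p under 0.05, against 22.4% of all tested unigenes. Of these 4 were called, against 1.11%, including c53024_g1, another match to LOC100384473, by -2.498 (SE 0.13, limma adjusted p = 0.000541). The 4 were named only in tables made from unigenes chosen by response, so their count is not independent evidence. Those named in other tables, c54201_g1 (-1.72) and c54201_g2 (-1.69), fell short of the fold limit. Under drought the HSP90 unigenes parted, since c53024_g1 stood at 213 and 207 against 195 and 226 in control, while c54089_g2, heat shock protein 82 and of the same component as the member c54089_g1, stood at 103 and 96.1 against 5.66 and 13.0.

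Protein disulfide isomerase8, which forms disulfide bonds in proteins of the secretory pathway, was c59953_g1, with 67.2 and 85.1 in control, 10.6 and 9.36 in cold, and 77 and 88.2 in drought. Of the 10 other protein disulfide isomerase unigenes tested, 0 were called in cold by limma at the fold limit, 5 had an unadjusted p under 0.05, and 5 were lower at an adjusted p under 0.05, where 22.4% of all tested unigenes were, by 0.63 to 1.25 on the log2(FPKM + 1) scale. The member's difference was -2.81. The universal stress protein c47936_g1 had 121 and 138 in control, 5.44 and 4.92 in cold, and 103 and 111 in drought, a cold mean of 4.00% of control. The tables give no function for 2 more members that stood higher in drought, by 0.93 and 0.94. The uncharacterized c51445_g1, listed under response to heat, went from 308 and 309 in control to 23.3 and 18.3 in cold and 552 and 629 in drought, and the hypothetical protein c58474_g1 went from 79.5 and 67.8 to 9.96 and 7.38 and to 140 and 143.

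Proteases and defence proteins were a further group. The legumain-like protease c62582_g1, of a family of vacuolar enzymes that cut after asparagine, had FPKM of 447 and 420 in control, 73.4 and 73.5 in cold, and 408 and 334 in drought. It kept 16.9% of its control level in cold, the highest share of any member. The other 2 legumain unigenes of its component were also lower in cold, c62582_g3 (LOC542609, see2b) by -2.06 (SE 0.12, limma adjusted p = 0.000606) and c62582_g2 by -1.22 (limma adjusted p = 0.00319). Maize insect resistance1, a cysteine protease that maize makes against caterpillars, was represented by 2 members. The first, c54887_g2, had 17.5 and 28.5 in control, 1.08 and 0.41 in cold, and 12.3 and 11.2 in drought. The other, c39052_g1, had 12.8 and 21.4 in control, was listed at 0 in both cold libraries, and had 4.33 and 16.4 in drought. Another unigene with this name, c55200_g1, was outside the drought window, with 32.2 and 52.4 in control, 0.95 and 0 in cold, and 6.6 and 21.4 in drought (cold difference -4.91, limma adjusted p = 0.00305). Only this last unigene was outside the choice of members, and its drought difference of -1.69 did not pass the test (limma adjusted p = 0.161). The neighbour of c54887_g2, c54887_g1, is annotated as maize insect resistance2 and changed far less. It had 58.4 and 61.4 in control and 47.9 and 41.2 in cold (difference -0.42, limma adjusted p = 0.0359). The RPP13-like disease resistance protein c36859_g1, of a family of intracellular immune receptors, stood at 59.9 and 69.0, 9.87 and 6.75, and 33.6 and 46.0 in control, cold and drought.

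Regulators outside the heat response included AP2/ERF factors, a plant family named for ethylene response factors. The unigene c53855_g1, matched to LOC100216626 (EREB179), had 117 and 117 in control, 5.27 and 3.47 in cold, and 69.1 and 108 in drought. The ethylene-responsive factor-like protein 1, c51992_g5, had 55.8 and 83.0 in control, 8.12 and 7.88 in cold, and 74.9 and 88.4 in drought. The first kept 3.74% of its control level in cold and the second 11.5%. A unigene matched to LOC606441 (cki2), c44229_g1, had 31.8 and 27.7 in control, 1.55 and 6.40 in cold, and 18.9 and 10.9 in drought.

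Enzymes of metabolism included aspartokinase 2, c64596_g1, which opens the path from aspartate to lysine, threonine and methionine, and the cinnamoyl CoA reductase c55105_g1, which opens the branch to lignin monomers. Both were named from their Arabidopsis match. Aspartokinase 2 stood at 129 and 130 in control, 21.7 and 20.4 in cold, and 75.9 and 61.1 in drought, and cinnamoyl CoA reductase at 49.8 and 105, 4.97 and 5.79, and 118 and 163. They lay at opposite sides of the drought window, at -0.91 and 0.93. A second aspartokinase 2 unigene, c61480_g3, also had lower values in cold (difference -1.12, limma adjusted p = 0.0053), and the 2 other cinnamoyl CoA reductase unigenes, c57454_g1 and c59138_g1, had differences of 0.58 and -0.24 with limma adjusted p of 0.185 and 0.285. The remaining annotated members were c52206_g1 and c52206_g4, which share the match LOC100285655 and had cold means of 10.5% and 10.7% of control, and the kelch-like protein c43759_g1 at 6.97%.

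The unannotated members included the most abundant of all. The 5 members with the highest control means held 30.6% of the summed control FPKM of the 142, and 3 of these had no annotation. The unigene c64179_g2 had FPKM of 617 and 685 in control, 67.3 and 142 in cold, and 541 and 631 in drought, and c64179_g5 of the same component had 414 and 490, 49.3 and 59.5, and 255 and 397. The unigene c49141_g1 had 737 and 562, 68.7 and 81.7, and 519 and 557. In cold the means of these 3 were 16.1%, 12.0% and 11.6% of control.

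Among members above 0 in a cold library, the 5 largest differences on the log2(FPKM + 1) scale were in members without annotation. In c48582_g1 the cold libraries held 0.593% of the control mean, and c55237_g3 (0.880%), c64545_g1 (1.55%), c53622_g6 (0.745%) and c62907_g2 (2.58%) followed in the size of the difference. The last, for instance, had 61.1 and 76.3 in control, 1.36 and 2.18 in cold, and 49.3 and 50.4 in drought, and c64545_g1 had 72.9 and 110, 1.61 and 1.23, and 61.6 and 68.5. In c53622_g6 one cold library was listed at 0 and the other at 0.63, against 30.7 and 53.9 in control and 53.0 and 34.2 in drought. Members listed at 0 in both cold libraries were, besides Hsf01 and the maize insect resistance1 unigene c39052_g1, c30451_g1, c44160_g1, c62724_g3, c153420_g1, c50532_g3 and c48779_g1, whose control means lay between 5.38 and 11.5. At such levels a value of 0 in the files says only that no fragment was assigned.

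The rule took no account of the assembly component, which groups unigenes that share sequence and may be parts, copies or splice forms of 1 gene. The 142 members fell in 135 components. In 7 components there were 2 members, in none were there more, and 59 members were the only unigene of their component. The 135 components held 227 further unigenes, of which 143 in 65 components had a mean FPKM of at least 1 and were tested. By limma, 10 of these 143 (6.99%) were called lower in cold, where 1.11% of all tested unigenes were, and 5 (3.50%) were called higher, where 2.16% were. At an adjusted p under 0.05 with any fold change, 55 (38.5%) were lower against 22.4% of all, and 18 (12.6%) higher against 14.8%. Their median cold difference was -0.47, against -0.18 over all tested unigenes. At an adjusted p under 0.05 in drought, 5 (3.50%) were lower against 2.83% of all and 12 (8.39%) higher against 5.69%. At the stricter limit 0 of the 143 were called lower by limma, where 0.0593% of all were and 0 had an unadjusted p under 0.05 past the fold limit, and 2 were called higher, where 0.725% were. Unigenes that met the rule are members and so were taken out of these 143, and fragments shared between unigenes of a component tie their values to the members'. The calls at an adjusted p under 0.005 rest on all 6 libraries, since leaving out any control or cold library or the second drought library left 0 of them, while 11 to 18 neighbours lower and 6 to 7 higher in cold stayed past the fold limit at an unadjusted p under 0.05 (limma), and without the first drought library 3 and 1 calls were left.

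Beyond those named above, the unigenes called lower in the members' components were c52590_g4, c52549_g3, c53867_g2, c57681_g1, c60308_g1 and c62173_g1, with differences from -2.48 to -2.05. Of these c53867_g2 shared its component with the HSP70 member and went from 30.2 and 31.5 in control to 5.71 and 4.13 in cold and 29.7 and 32.5 in drought, a change of -2.44 (SE 0.16, limma adjusted p = 0.00077). The unigene c57681_g1 went from 265 and 348 to 62.3 and 65.1, and was at 177 and 215 in drought. The latter therefore lay below both controls in drought too, though not past the threshold (limma adjusted p = 0.0818).

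In 5 components a neighbour of a member was called higher in cold. In c51992 the ethylene-responsive factor-like member fell as described, while c51992_g7, annotated as dehydration-responsive element-binding protein 1A-like, a transcription factor of cold acclimation, went from 7.30 and 4.59 in control to 50.2 and 62.3 in cold (difference 3.06, SE 0.29, limma adjusted p = 0.00165). The summed FPKM of the component was 72.8 and 102 in control and 76.1 and 87.5 in cold. In c58683 the unannotated member c58683_g3 went from 117 and 171 to 16.9 and 11.9, and c58683_g1, annotated as ACC oxidase, the enzyme of the last step of ethylene synthesis, from 29.2 and 26.9 to 125 and 132 (difference 2.16, SE 0.11, limma adjusted p = 0.000534). That unigene also rose in drought, to 68.7 and 76.2 (difference 1.34, limma adjusted p = 0.00266), under the fold limit. In c55854 the neighbour was c55854_g3, a cytochrome P450 of family 78, at 5.27 and 8.38 in control and 43.2 and 33.9 in cold (limma adjusted p = 0.00282). In c58266 it was the unannotated c58266_g2, at 0 and 0.26 in control and 5.58 and 5.57 in cold (limma adjusted p = 0.00239), and in c55237, which holds c55237_g3, it was c55237_g1, annotated as ribonuclease H-like, at 1.07 and 0.85 and then 7.08 and 6.97 (limma adjusted p = 0.00226). Whether such pairs are different genes or forms of 1 gene was not tested.

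Values were also summed over all unigenes of a component. In the 65 components with a tested neighbour, the difference between cold and control of log2(summed FPKM + 1) ran from -4.15 to 0.15 with a median of -1.19. It was past -2.5 in 14 components, within 1 of control in 22 and above control in 3. Among the low sums in cold were those of the universal stress protein (-4.15) and of the alcohol dehydrogenases (-2.48). The components of HSP70 (-2.67) and of the HSP90 unigene c54089_g1 (-2.79) were others. In these last 2 the member itself had -2.61 and -2.72. With a pseudocount of 0.1 the 2 members had -2.76 and -2.77, so gaps this small depend on the pseudocount and are not read. For the other annotated members with a tested neighbour, the component sums were -2.39 (legumain), -2.11 (the HSP90 unigene c53024_g4) and -1.02 (Hsf01). The rest were -0.99 for Hsf17, -0.86 for c54887_g2, -0.64 for c52206_g1 and c52206_g4, and -0.08 for the ethylene-responsive factor-like member. In the component c61718 the member c61718_g2 went from 141 and 171 in control to 6.49 and 12.4 in cold while the sum went from 763 and 709 to 771 and 749.

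**Figure D3:**
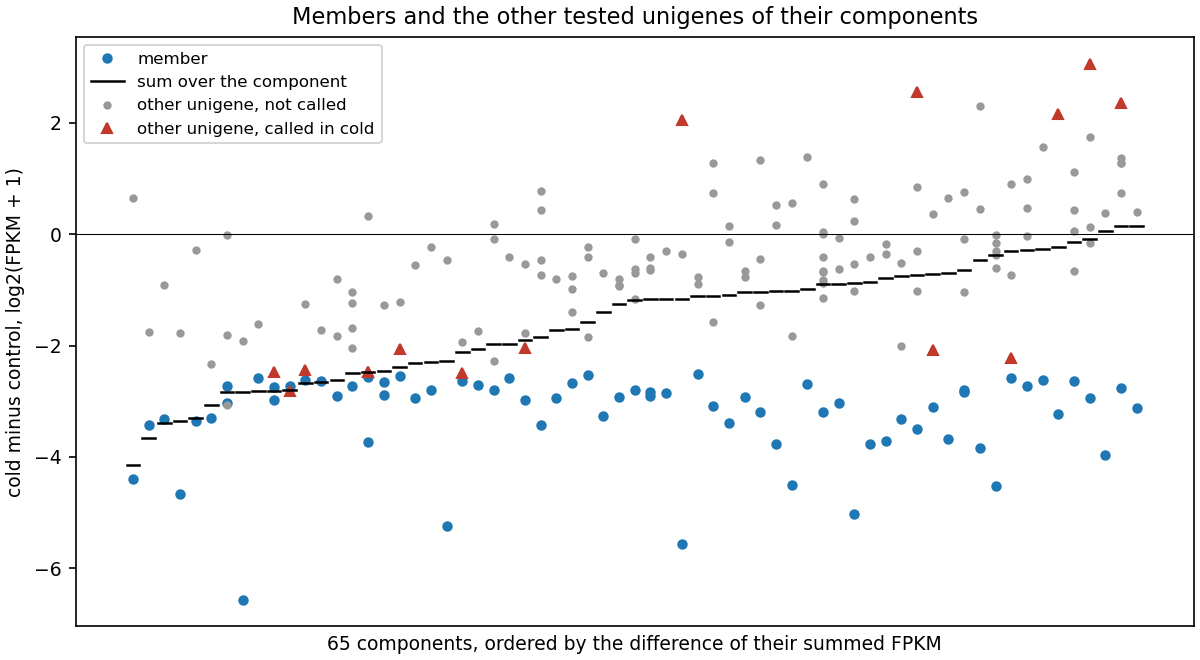
Difference between cold and control on the log2(FPKM + 1) scale for members (blue), the other tested unigenes of their components (grey, or red triangles where called by limma) and the summed FPKM of each component (black bars), in 65 components ordered by that sum. The sums run from -4.15 at the left to 0.15 at the right, and the 5 red triangles above 0 are the neighbours called higher in cold.

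Differences between the libraries of a condition are given as a description, since the rule used the means of these values and set the members' low level in cold. The median absolute difference between the 2 control libraries was 0.28 on the log2(FPKM + 1) scale, against 0.15 over the 19345 unigenes with the same control floor. In cold it was 0.32 against 0.18 and in drought 0.27 against 0.17. The control difference leaned to one side, with the second control library the higher in 90 of the 142 members (63.4%, against 52.5% of the 19345). The controls differed at least 2-fold in 12 members (8.45%, against 1.71%), and in all 12 the second library was the higher. The most uneven were c60685_g4, at 5.66 and 26.8, and c63236_g2, at 8.65 and 36.9, and the cinnamoyl CoA reductase unigene was also among the 12. In c63236_g2 the drought libraries, at 38.3 and 35.8, lay near the second control and above the first. These counts are over unigenes of 1 pair of libraries and carry no test, and what separated the control libraries was not tested.

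**Figure D4:**
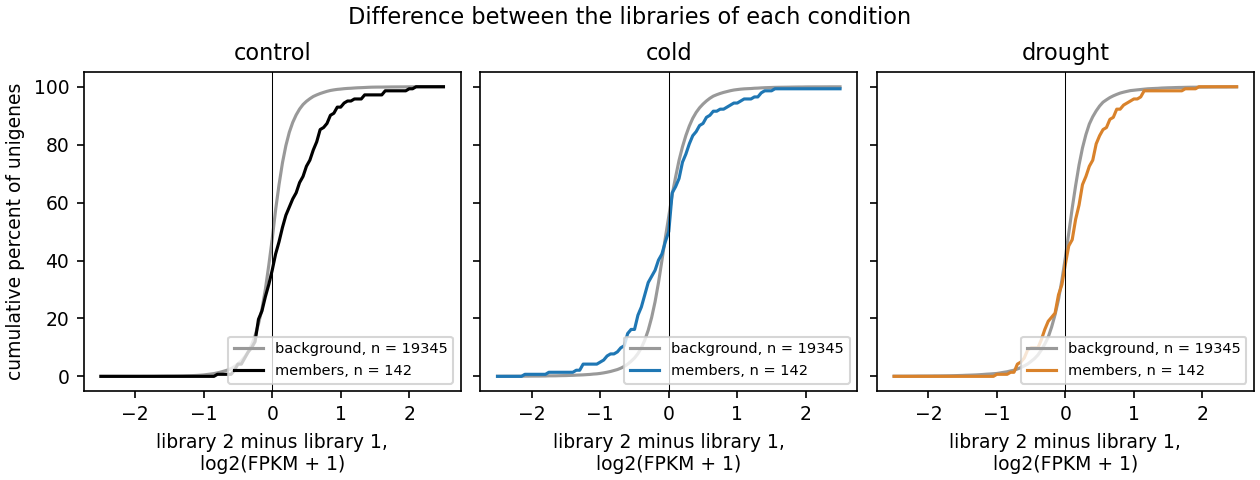
Cumulative percent of unigenes (y axis) by the difference between the second and the first library of a condition on the log2(FPKM + 1) scale (x axis), for the 142 members (coloured or black) and the 19345 unigenes with FPKM of at least 5 in both controls (grey). In control the members' curve lies to the right of the grey one above 0, with a median of 0.14 against 0.01.

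Lists of annotated genes were set beside the members, from the tables that were not chosen by response. Over all tested unigenes, 1.11% were called lower and 2.16% higher in cold, and 22.4% were lower and 14.8% higher at an adjusted p under 0.05, with a median of -0.18. Of 8 tested heat and chaperone unigenes 2 were called lower in cold, with a list median of -1.23. These are the small heat shock proteins c46143_g1 and c56552_g1. They are called higher in drought and are also named by the study, and either would keep them out of the members. Of 37 protease and defence unigenes 4 were called lower in cold, with a list median of -0.21, near that of all tested unigenes. Of the 4, 3 are members, whose calls rest on values the rule used. Of 51 peroxidase and redox unigenes 1 was called lower and 19 were lower at an adjusted p under 0.05, with a median of -0.44, and none is a member. Calls in cold numbered 2 lower and 3 higher of 124 kinase unigenes, and 1 and 3 of 60 transcription factors. They numbered 3 and 3 of 47 hormone genes, and 3 higher of 85 transporters. In the kinase list 1 unigene is a member, whose values the rule used. At an adjusted p under 0.05, 7 of 50 ribosomal protein unigenes were lower and 6 higher, and 1 of 4 clock unigenes each way.

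Markers of the pooled organs were measured with the same fit. The summed FPKM of 22 photosynthesis unigenes was 12335 and 12120 in control, 12430 and 15600 in cold and 8730 and 8430 in drought. The sum of 18 root markers was 49.7 and 85.0, then 109 and 141, then 46.9 and 68.9, and that of 57 cell wall markers of stems was 1973 and 1938, then 2275 and 2488, then 1972 and 2062. No marker of these 3 lists was at 0 in all 6 libraries, and none of these sums, which follow the most abundant unigenes, was lower in cold than in control. Of the 46 cell wall unigenes tested, 5 were lower and 15 higher in cold at an adjusted p under 0.05, with a median of -0.10, and 1 was called lower, the cinnamoyl CoA reductase member c55105_g1. The summed FPKM of 76 cell cycle and histone unigenes was 2557 and 2663 in control, 2249 and 2167 in cold and 2567 and 2479 in drought, and 1 of the 76 was at 0 in all libraries. Sums of FPKM do not measure organ shares, whose part in the members' values was not tested.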

How the data were processed

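Reads pooled from every sample were assembled by the authors in Trinity. Each library's pairs were aligned to that assembly in Bowtie 1.1.1 and quantified in RSEM, and the authors deposited FPKM values of 184280 unigenes in 6 libraries, rounded to 2 decimals. FPKM sums ran from 967046 to 993409, and read counts were not used here, so the depth behind each value is unknown. Members and lists were chosen with earlier results of these data known. Differences are of group means of log2(FPKM + 1). The 38768 unigenes whose FPKM averaged 1 or more, all members among them, were fitted in limma 3.58.1 (R 4.3.3) with a mean-variance trend over 6 libraries, on 3 residual degrees of freedom. p was adjusted after Benjamini and Hochberg, and calls needed a log2 fold change of 2 or more in size with an adjusted p below 0.005. With 2 libraries a group, an exact permutation test cannot go below p = 0.333. The fit was tested on simulated data. Tables were made in Python 3.11.15 with pandas 2.3.3.

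Named were annotated members, the 5 most abundant, the 5 with the largest fall, unigenes at the limits, and neighbours called in cold, up to 10. Members named through RefSeq synonyms (maize B73), the other neighbours and other unigenes of the same annotation were chosen after their values were seen. Annotations came from the study's supplementary tables. Replicates are separate pools of seedlings as far as the labels say, and p measures the spread between these pools. No sequences of the unigenes were used here.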

Additional observations from a re-analysis of the deposited data

How the results depend on the processing

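The members are a cut through a continuum, so their number followed the limits. The rule gave 142 members as reported, 267 with a pseudocount of 0.1, 339 and 68 with the cold limit at -2 and -3, and 80 with a drought window of 0.5, and 110 to 156 under the other scalings and control limits. Leaving out a library gave 135 to 189, of which 121 to 133 were among the 142. The cold differences of the 23 named members that were recomputed reversed in 0 of 69 cases and stayed past -2.5 in 66. The rule chose these members by large differences in the same values, so the count is a description and not a test.

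In limma the calls of all tested unigenes in cold were 432 lower and 838 higher. Median-of-ratios scaling gave 299 and 1086, and moved the median cold difference from -0.18 to 0.0. At an adjusted p under 0.05 with any fold change there were 8693 and 5720. Among component neighbours the same limit gave 55 lower and 18 higher in cold, and 5 lower and 12 higher in drought. Without the filter on low values limma called 0 of all, in either direction, and 0 neighbours, while 627 unigenes and 13 neighbours lower and 1265 and 6 higher were past the fold limit at an unadjusted p under 0.05. The 2 neighbours called higher in drought became 0 with a pseudocount of 0.1, median-of-ratios scaling, no mean-variance trend or no filter, with 5 to 7 past the fold limit at an unadjusted p under 0.05. Leaving out a library gave 0 to 90 lower and 0 to 179 higher in cold, 0 to 3 and 0 to 1 among neighbours, and 0 higher in drought. Such fits have fewer residual degrees of freedom, and at an unadjusted p under 0.05 past the fold limit they held 638 to 787 lower and 1261 to 1573 higher.

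Replicate numbers of different groups did not deviate together (correlations of -0.032, -0.011 and 0.039), so samples share only a number. With the replicate number as a block, lower calls in cold went from 432 to 291 and higher calls from 838 to 521, members called lower from 127 to 104 (94 without the mean-variance trend), neighbours called lower and higher in cold were 6 and 2, and 0 neighbours were called higher in drought. FPKM carries no depth, so values near 0 have no counting error here.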
